A study of Homo sapiens with 42 samples.

Results

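Lysosome genes are described here across an RNA-seq series on the loss of ENL (gene MLLT1), a chromatin reader of acetylated histones, in human leukaemia cell lines. The set is a list of 46 named genes, matched by GENCODE symbol to the gene identifiers of the 4 deposited tables. All 46 were present in every table, of 58721 identifiers in all. The list covers 7 membrane proteins, 10 cathepsins and other peptidases, 13 hydrolases of sugar chains and their sulfates, 8 genes of lipid breakdown including progranulin, 3 transcription factors and 5 genes of the proton pump.

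The 42 libraries were made from polyA RNA and fall into 15 groups. MV4;11, an acute myeloid leukaemia line with an MLL-AF4 fusion, was cultured for either 6 or 24 h with DMSO or with a 100 nM dose of MS41, MS41N or PFI-6, and each such group has 3 libraries. MS41 is a degrader of the ENL protein, MS41N is the control compound paired with it (one protocol label spells it MS47N), and PFI-6 blocks the YEATS domain through which ENL binds acetylated histones. The second line, SEMK2, derives from B-cell precursor leukaemia, has the same kind of fusion, and received DMSO or 100 nM MS41 with 3 libraries each, and the treatment time of these libraries is not given in the sources used here. In a CRISPR experiment on MV4;11, 2 libraries each came from cells given a control guide and from cells given either of 2 guides against ENL (called guide 1 and guide 2), whose genotype the labels give as an ENL knockout. Human MV4;11 cells from a mouse xenograft, treated with vehicle or MS41 at a dose and time not given in the sources used here, gave 3 libraries per group and were prepared with a low-input kit. All other lines and groups are labelled wild type. Whether replicate libraries stem from different cultures or mice is not stated, and the p-values therefore reflect a spread between libraries that may be technical.

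Lysosomes are acidic organelles in which proteins, glycans and lipids are broken down. A proton pump, the V-ATPase, acidifies them, soluble hydrolases do the digestion, and heavily glycosylated proteins such as LAMP1 and LAMP2 line the membrane. TFEB, TFE3 and MITF are related factors that bind the E-box CACGTG, often within the longer site TCACGTGA, near lysosome genes, and so regulate many of them together. Monocytes and macrophages are rich in lysosomes, and several cathepsins are textbook products of maturing myeloid cells.

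Total counts per library ranged from 102345811 to 156479711 for the MV4;11 compound libraries, from 155911682 to 230637548 for SEMK2, from 77216662 to 87813453 for the guide libraries and from 99485164 to 126740852 in vivo. Levels are given as CPM, counts divided by the TMM-scaled library size and put on the usual common scale, and as CPM per kilobase of exon where genes are set beside each other. Fold changes are log2, with the p-value of edgeR's quasi-likelihood test, adjusted by the Benjamini-Hochberg method over all genes tested in that comparison. The test itself gives no standard error (SE). The SE given is the size of the fold change divided by the square root of the test's F statistic. The 95% confidence intervals are built from this SE, and both are approximate, most of all for fold changes near 0. A gene is called, and said to have risen or fallen, at an adjusted p under 0.05. After the filter on low counts, 46 members were tested in the MV4;11 compound table, 44 in SEMK2 (without CD68 and CTSL), 45 with the guides (without CTSL) and 45 in vivo (without LGMN). In bulk RNA, a change in the number of cells of a type and a change in RNA per cell cannot be told apart. The labelled lines were checked against marker genes: myeloid markers summed to 798 to 3190 CPM and B-lineage markers to 3.97 to 6.85 CPM over the DMSO and MS41 libraries of MV4;11 at 6 and 24 h, whereas SEMK2 held 73.5 to 105 CPM of myeloid and 1790 to 1900 CPM of B-lineage markers. MLLT1 RNA itself stood at 223 and 250 CPM with the control guide, at 181 and 190 CPM with ENL guide 1 and at 123 and 127 CPM with ENL guide 2. Both guides lowered it (log2 fold change -0.35, SE 0.07, adjusted p = 0.012 for guide 1 and -0.92, SE 0.07, adjusted p = 1.8e-05 for guide 2), and RNA need not fall at all when a guide breaks the reading frame or a compound degrades the protein.

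The windows around the gene starts show how far the binding sites of TFEB, TFE3 and MITF mark these genes. RefSeq promoter windows (GRCh38.p14, 250 bases before to 50 bases after the gene start, 300 bases in all) were available for 33 of the 46 members. Both strands were searched, and since TCACGTGA holds TCACGTG, which holds CACGTG, the counts are nested. TCACGTGA stood in 5 of the 33 windows (15.2%) and in 283 of 27305 windows of all genes (1.04%), or 1.78% of the 11557 windows of genes tested in the MV4;11 compound table. TCACGTG stood in 6 of the 33 (18.2%, against 3.82% of all windows and 5.63% of those of tested genes). CACGTG stood in 7 (21.2%, against 7.43% and 9.91%). The 4 windows with TCACGTGA that had the largest MS41 changes at 24 h are printed below, with the octamer in capitals; they are read 5′ to 3′ along the gene's strand.

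GAA, chr17:80101331-80101630, plus strand: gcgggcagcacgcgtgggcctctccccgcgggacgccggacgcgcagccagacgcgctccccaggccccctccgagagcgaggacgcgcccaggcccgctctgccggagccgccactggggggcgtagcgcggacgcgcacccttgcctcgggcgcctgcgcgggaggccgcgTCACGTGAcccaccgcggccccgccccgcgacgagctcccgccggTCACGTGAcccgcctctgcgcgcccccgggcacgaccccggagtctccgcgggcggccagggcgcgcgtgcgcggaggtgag

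ATP6V0D1, chr16:67481108-67481407, minus strand: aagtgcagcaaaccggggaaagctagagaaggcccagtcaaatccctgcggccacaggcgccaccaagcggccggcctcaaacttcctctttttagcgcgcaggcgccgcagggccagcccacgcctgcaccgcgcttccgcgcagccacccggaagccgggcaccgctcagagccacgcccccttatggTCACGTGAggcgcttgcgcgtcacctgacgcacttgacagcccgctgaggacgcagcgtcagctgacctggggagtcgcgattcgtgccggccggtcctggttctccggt

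CTSA, chr20:45891085-45891384, plus strand: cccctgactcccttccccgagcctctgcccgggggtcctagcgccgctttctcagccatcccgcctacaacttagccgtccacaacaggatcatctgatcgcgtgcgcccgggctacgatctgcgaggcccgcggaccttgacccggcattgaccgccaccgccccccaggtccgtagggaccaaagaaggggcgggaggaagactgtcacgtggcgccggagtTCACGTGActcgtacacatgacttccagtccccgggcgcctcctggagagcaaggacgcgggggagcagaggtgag

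MCOLN1, chr19:7522374-7522673, plus strand: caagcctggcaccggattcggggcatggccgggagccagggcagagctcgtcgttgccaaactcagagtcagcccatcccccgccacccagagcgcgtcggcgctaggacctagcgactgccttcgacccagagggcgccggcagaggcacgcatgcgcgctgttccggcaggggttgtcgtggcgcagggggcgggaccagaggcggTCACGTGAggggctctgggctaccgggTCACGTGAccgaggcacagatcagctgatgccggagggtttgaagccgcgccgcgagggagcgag

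The first octamer began at -77 in GAA, -60 in ATP6V0D1, -26 in CTSA and -42 in MCOLN1, counted from the RefSeq gene start of the window. A single window per gene was searched, and its RefSeq start can differ from the start of the GENCODE span given elsewhere. The window of CTSA, for example, lies inside the GENCODE span of that gene, chr20:45890144-45898820. The 5 genes with the octamer, these 4 and LAMP1, were not the ones that moved most with MS41. Their median log2 fold change at 24 h was 0.04 and 2 of 5 were called higher, against 0.40 and 22 of 28 for the members whose window lacks it. No CACGTG was found in the windows of FUCA1, CTSH, GRN, IDS, TFEB and SCARB2, which are among the genes that rose most; CTSS, CTSB and PSAP are not among the 33 and enter neither median. A match is a run of letters and does not show that a factor binds, and the lack of one says only that the letters are not in this window.

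After 24 h of MS41, most lysosome genes of MV4;11 stood higher than with DMSO. Of 46 members tested, 34 rose and 3 fell. The share called higher was 73.9%, beside 21.4% of all 22711 genes tested, and the share called lower was 6.52%, beside 22.9%. The median log2 fold change was 0.36 for the members and 0.02 for all genes. Of the 46 members, 34 (73.9%) had every MS41 library above every DMSO library, beside 25.2% of all genes tested. These were the same 34 genes that were called higher, so this restates the calls. Together the 46 genes took 0.391 to 0.394% of all counts in the 24 h DMSO libraries and 0.504 to 0.512% in the 24 h MS41 libraries, with no overlap. At 24 h the share was 0.387 to 0.393% for MS41N and 0.387 to 0.392% for PFI-6.

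**Figure D1:**
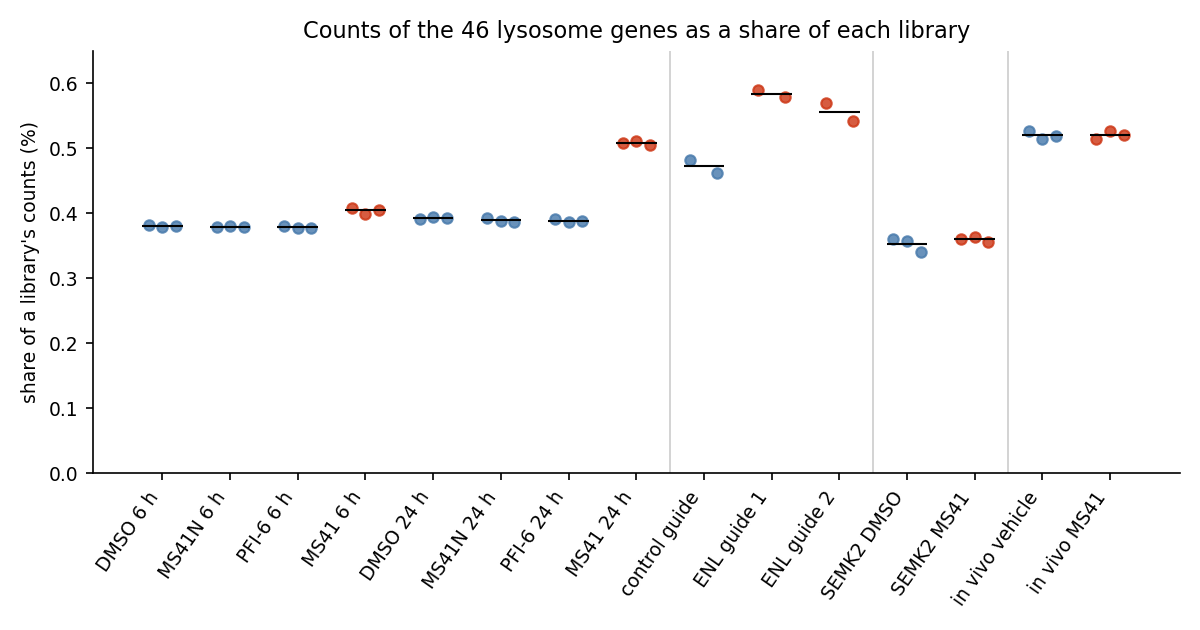
Share of all counts taken by the 46 lysosome genes (y axis, percent) in each of the 42 libraries (points) of the 15 groups (x axis). The 24 h MS41 libraries sit at 0.504 to 0.512%, above the 24 h DMSO libraries at 0.391 to 0.394%, and the ENL guide libraries at 0.541 to 0.590% sit above the control guide at 0.462 to 0.482%, while the in vivo groups overlap.

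The proteases of the lysosome gave some of the largest rises, with 7 of 10 peptidase genes called higher and 1 lower at 24 h. CTSS, at chr1:150730196-150765957 on the minus strand (GENCODE 29, hg38), encodes cathepsin S, the protease that trims the invariant chain of MHC class II. It read 66.6, 67.2 and 63.8 CPM with DMSO and 160, 165 and 162 CPM with MS41. The MS41 values lay far above all DMSO values, a 2.47-fold difference (log2 fold change 1.30, SE 0.03, adjusted p = 1.8e-32). CTSB, which encodes the cysteine protease cathepsin B, read 90.2, 88.9 and 91.2 CPM with DMSO and 208, 219 and 210 CPM with MS41. This was again a clean separation, 2.36-fold (1.24, SE 0.03, adjusted p = 2e-33). CTSH (chr15:78921058-78949574, minus strand), for the aminopeptidase cathepsin H, was a much less abundant transcript. It went from 8.64, 9.57 and 9.18 CPM to 16.5, 17.1 and 16.0 CPM, a 1.81-fold difference (0.86, SE 0.06, adjusted p = 4.3e-16).

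Smaller rises were called for CTSZ (log2 fold change 0.49), for CTSD, the aspartic protease cathepsin D (0.39), for TPP1, a tripeptidyl peptidase (0.26), and for CTSC, which activates the granule proteases of myeloid cells (0.08, SE 0.02, adjusted p = 0.0046). The call for CTSC had an adjusted p of 0.054 when genes of low counts were kept. CTSA, the protective protein that stabilises lysosomal β-galactosidase and neuraminidase (chr20:45890144-45898820, plus strand), went the other way. Its DMSO libraries read 65.6, 69.5 and 69.8 CPM and its MS41 libraries 59.2, 61.4 and 60.0 CPM, so all 3 lay below (-0.18, SE 0.03, adjusted p = 4.4e-06). CTSL and LGMN were barely detected in MV4;11, at no more than 0.5 and 0.176 CPM in any compound library, and neither was called.

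Among the enzymes that cut sugar chains, 9 of 13 genes rose and 1 fell at 24 h. FUCA1, for the α-L-fucosidase that removes fucose from glycoproteins (chr1:23845077-23868294, minus strand), had the largest rise of all members. It read 33.6, 35.6 and 33.8 CPM with DMSO and 90.0, 91.2 and 89.2 CPM with MS41. The gap was 2.63-fold and many times the spread within either group (log2 fold change 1.39, SE 0.04, adjusted p = 4.8e-30). IDS, for the sulfatase that acts on dermatan and heparan sulfate (chrX:149476990-149521096, minus strand), read 30.8, 30.3 and 28.9 CPM with DMSO and 53.7, 51.2 and 51.5 CPM with MS41 (0.80, SE 0.04, adjusted p = 1.8e-22). HEXA, the α subunit of β-hexosaminidase (0.73), MANBA, the β-mannosidase (0.70), and ARSB, arylsulfatase B (0.66), followed. GAA, the acid α-glucosidase that degrades glycogen (0.33), GLB1, the lysosomal β-galactosidase (0.33), ARSA (0.24) and GUSB (0.10) rose less, and ARSA and GUSB were not called when certain single libraries were left out. GLA, α-galactosidase A, fell from 76.1, 83.8 and 82.4 CPM to 76.0, 76.5 and 74.2 CPM, with groups that overlapped (-0.10, SE 0.03, adjusted p = 0.013). The call for GLA was lost without any of 3 single libraries, with adjusted p up to 0.13 without DMSO replicate 2. MAN2B1 (-0.04), NAGLU (0.02) and IDUA (-0.14, SE 0.33) were not called.

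All 8 genes of lipid breakdown rose at 24 h. PSAP (chr10:71816298-71851375, minus strand) encodes prosaposin, the precursor of the saposins that lift sphingolipids to their hydrolases. Its DMSO libraries read 84.3, 87.0 and 86.8 CPM and its MS41 libraries 184, 192 and 176 CPM, which is 2.14-fold (log2 fold change 1.10, SE 0.03, adjusted p = 3.4e-30). GRN (chr17:44345086-44353102, plus strand) encodes progranulin, a secreted protein that binds prosaposin and is cut into granulins in the lysosome. It went from 91.9, 87.6 and 94.8 CPM to 172, 185 and 175 CPM, 1.94-fold (0.95, SE 0.05, adjusted p = 1e-14). The cholesterol carrier NPC2 (0.55), the GM2 activator GM2A (0.55), acid ceramidase ASAH1 (0.48), acid sphingomyelinase SMPD1 (0.41) and acid lipase LIPA (0.32) rose by less. PPT1, a thioesterase that removes palmitate from proteins, rose by 0.08 (SE 0.02, adjusted p = 0.0063), a call lost without MS41 replicate 2 (adjusted p = 0.088).

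Membrane proteins moved less as a group, with 3 of 7 genes higher, 1 lower and a median log2 fold change of 0.04. SCARB2, the receptor LIMP-2 that carries β-glucocerebrosidase to the lysosome, rose from a mean of 40.3 to 66.2 CPM (0.72, SE 0.04). NPC1, the cholesterol transporter that works with NPC2, rose from 35.3 to 52.3 CPM (0.57, SE 0.04), and the tetraspanin CD63 from 110 to 133 CPM (0.28, SE 0.03). LAMP2 (chrX:120427827-120469365, minus strand), one of the major membrane glycoproteins, read 501, 512 and 474 CPM with DMSO and 473, 473 and 450 CPM with MS41. All MS41 values were below all DMSO values by a narrow margin, the fall was small (-0.09, SE 0.03, adjusted p = 0.0035), and the call was lost without DMSO replicate 2 (adjusted p = 0.06). LAMP1 read 172, 175 and 167 CPM against 169, 171 and 166 CPM, overlapping groups with no call (-0.02, SE 0.02, adjusted p = 0.51). The calcium channel gene MCOLN1 was not called (0.04). CD68, a macrophage marker in most tissues, read at most 0.405 CPM in any MV4;11 library, and all of its 1878 exon bases are shared with other annotated genes.

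Of the transcription factors, TFEB and TFE3 rose and MITF was not called. TFEB (chr6:41683978-41736259, minus strand) read 4.23, 4.51 and 4.71 CPM with DMSO and 7.39, 8.16 and 6.93 CPM with MS41 at 24 h. All treated values were above all control values, 1.67-fold (log2 fold change 0.74, SE 0.11, adjusted p = 4.5e-07). TFE3 read 22.8, 23.8 and 22.4 CPM against 32.2, 31.1 and 31.3 CPM (0.46, SE 0.04, adjusted p = 4.8e-13). MITF was scarce and its groups overlapped, at 1.66, 1.55 and 1.15 CPM against 1.96, 1.57 and 1.51 CPM (0.21, SE 0.15, adjusted p = 0.27). All 5 listed genes of the proton pump rose: ATP6V1H by 0.45, the catalytic subunit gene ATP6V1A by 0.40, ATP6V0D1 by 0.21, ATP6V1B2 by 0.17 and the accessory subunit gene ATP6AP1 by 0.17.

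Most of the abundant members changed little. Per kilobase of exon, the most abundant members in the 24 h DMSO libraries were ATP6V1B2 (126 CPM per kb), PPT1 (89.9), LAMP2 (89.7), CTSZ (83.7), MAN2B1 (64.2), LAMP1 (63.5), TPP1 (57.0) and GLA (56.0). Of these 8, CTSZ alone changed by more than 0.3 on the log2 scale. TFEB, which rose, stood at 1.00 CPM per kb and HEXA at 2.75 CPM per kb.

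Some readings need care because exons of 17 members overlap exons of other genes, and the strand setting of the counting is not given in the sources used here. The shared part is 54.9% of the exon bases of CTSD, 35.7% of MAN2B1, 29.6% of CTSA, 27.3% of PPT1 and 23.7% of HEXA. Pseudogene copies were low beside IDS, FUCA1 and GUSB: IDSP1 reached 0.236 CPM, FUCA1P1 0.0248 CPM and GUSBP1 21.0 CPM where GUSB never read below 61.3 CPM. For the scarce LGMN and CTSL this does not hold. Over all 42 libraries LGMNP1 reached 1.09 CPM and CTSLP2 0.0962 CPM, and their parents read as low as 0.0 CPM. These extremes need not come from the same library or cell line. How far pseudogene reads bear on the low MV4;11 values of both genes is therefore uncertain.

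Myeloid markers rose in the same libraries. The summed level of the 10 fixed myeloid markers was 1810 to 1850 CPM with DMSO and 3000 to 3190 CPM with MS41 at 24 h. Of the 10, 8 were called higher and 1 lower, beside 21.4% and 22.9% of all genes, and none was at 0. T and NK cell markers, of which CD2 was at 0 in both groups and CD3D and CD3E at 0 with DMSO, summed to 6.15 to 7.16 CPM with DMSO and 13.3 to 14.5 CPM with MS41. Mitochondrial genes took 5.2 to 5.41% of the counts with DMSO and 5.86 to 7.04% with MS41. The part of these in the lysosome gene values was not tested.

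At 6 h the response was smaller and mixed. MS41 raised 15 of 46 members (32.6%, beside 12.2% of all genes tested) and lowered 5 (10.9%, beside 13.8%), with a median log2 fold change of 0.08 for the members and 0.02 for all genes. The members' share of raw counts was 0.378 to 0.382% with DMSO and 0.399 to 0.408% with MS41. Their summed level on the TMM-scaled library sizes overlapped, at 3800 to 3850 CPM with DMSO and 3840 to 3920 CPM with MS41. The largest rises at 6 h were CTSS (log2 fold change 0.44, adjusted p = 1.3e-14), TFEB (0.41, adjusted p = 0.0074), FUCA1 (0.33), SCARB2 (0.31), ARSB (0.28), CTSB (0.27) and CTSH (0.26). CTSS read 68.9, 69.4 and 67.9 CPM with DMSO and 96.9, 93.2 and 88.8 CPM with MS41, with no overlap. TFEB read 3.59, 2.88 and 2.79 CPM against 4.7, 3.85 and 3.79 CPM, also without overlap, but its call was lost without DMSO replicate 3 (adjusted p = 0.06) or MS41 replicate 1 (adjusted p = 0.088). TFE3 rose from 25.2, 25.6 and 25.2 CPM to 28.5, 28.5 and 29.2 CPM (0.18). All 15 members called higher at 6 h were among the 34 of 46 called higher at 24 h.

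PSAP and GRN, which were among the strongest at 24 h, showed no call at 6 h. PSAP read 70.0, 68.0 and 68.1 CPM with DMSO and 72.5, 67.5 and 67.2 CPM with MS41 (0.01). GRN read 81.8, 76.1 and 75.7 CPM against 85.9, 81.9 and 85.0 CPM (0.11, adjusted p = 0.1). Of the lipid genes, SMPD1 alone was called higher at 6 h (0.25), and that call was lost without some single libraries.

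The 5 members lowered at 6 h were LAMP2, GLA, CTSC, LAMP1 and PPT1. LAMP2 read 462, 467 and 465 CPM with DMSO and 401, 412 and 399 CPM with MS41, a clear gap (-0.20, adjusted p = 5.1e-08). LAMP1 read 175, 173 and 177 CPM against 165, 167 and 165 CPM (-0.08, adjusted p = 0.016, and 0.076 without DMSO replicate 3). CTSC (-0.09) and PPT1 (-0.07) were lower at 6 h and called higher at 24 h, whereas GLA (-0.14 at 6 h) and LAMP2 stayed lower. CTSC went from 191, 195 and 194 CPM to 184, 183 and 176 CPM at 6 h, and from 197, 197 and 193 CPM to 204, 208 and 208 CPM at 24 h. At 6 h the myeloid markers summed to 883 to 905 CPM with DMSO and 798 to 814 CPM with MS41. Of the 10, 2 were called higher and 3 lower, beside 12.2% and 13.8% of all genes.

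**Figure D2:**
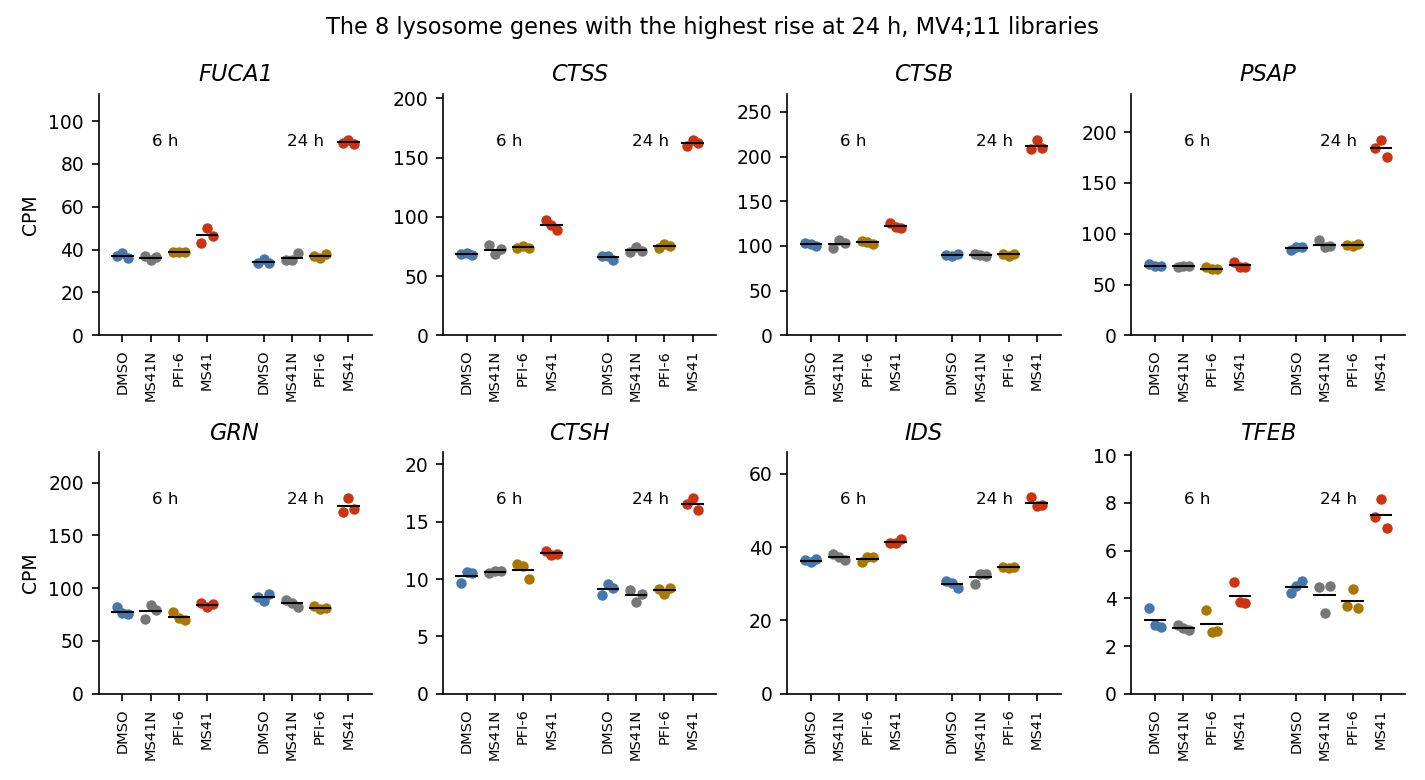
CPM (y axis, 1 panel per gene) of the 8 members with the largest rises under MS41 at 24 h, in each MV4;11 compound library (points; lines are group means) at 6 h and 24 h. In every panel the 24 h MS41 points lie above all other 24 h points; for FUCA1 they sit at 89.2 to 91.2 CPM and the 24 h DMSO points at 33.6 to 35.6 CPM.

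The change between the times was tested as the MS41 effect at 24 h minus that at 6 h, each against its own DMSO. It was positive and called for 31 of 46 members (67.4%, beside 11.9% of all genes) and negative and called for none (0.0%, beside 14.5%). The median difference was 0.26 for the members and -0.01 for all genes. PSAP had the largest (1.09, SE 0.05, adjusted p = 2.4e-23), followed by FUCA1 (1.07, SE 0.06, adjusted p = 1.7e-19), CTSB (0.97, adjusted p = 4.7e-23), CTSS (0.87), GRN (0.84), MANBA (0.62) and HEXA (0.61). For FUCA1 the 6 h values were 37.2, 38.2 and 36.3 CPM with DMSO and 43.1, 50.3 and 46.5 CPM with MS41. For CTSB they were 103, 102 and 99.9 CPM and 126, 121 and 120 CPM, so both genes were already separated at 6 h and further apart at 24 h. For TFEB the difference was not called (0.33, adjusted p = 0.16).

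**Figure D3:**
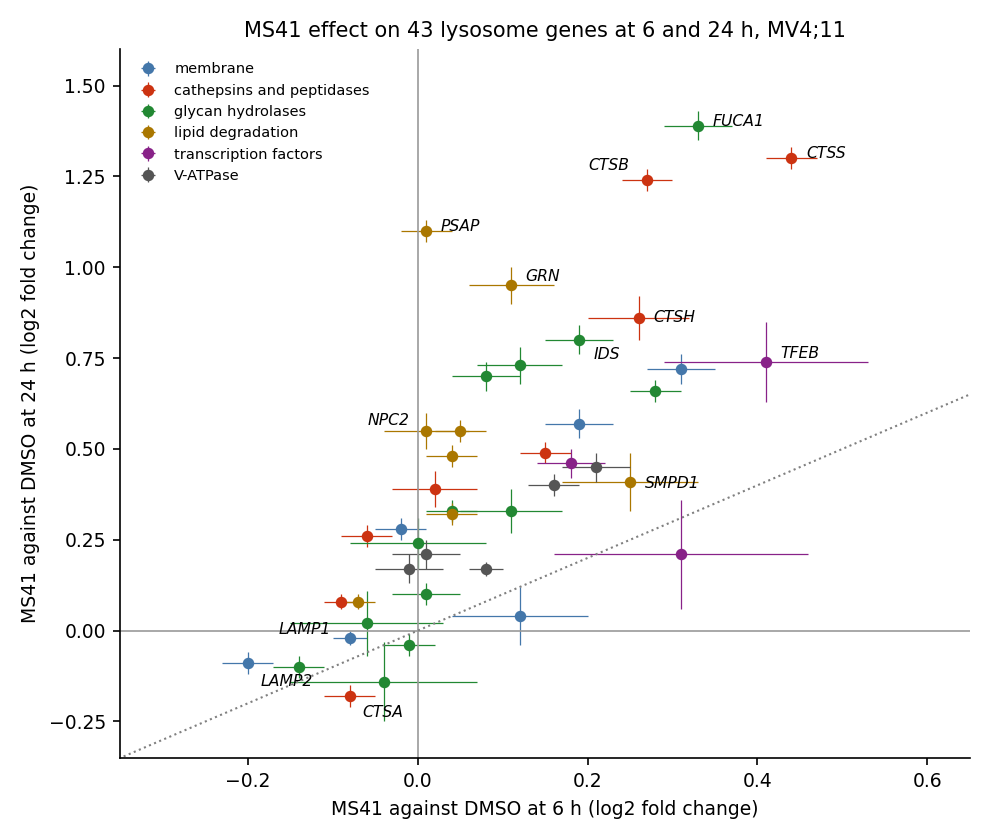
Log2 fold change under MS41 at 6 h (x axis) and 24 h (y axis), each against its own DMSO, for 43 members (points, coloured by role; bars are the SE); 3 members near 0 CPM in MV4;11 are left out and the dotted line marks equal change. PSAP lies at 0.01 and 1.10 and GRN at 0.11 and 0.95, while CTSS, at 0.44 and 1.30, was called at both times.

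Time in culture with DMSO alone also moved these genes, so each MS41 library is read against DMSO of its own time. Between 6 and 24 h of DMSO, 14 members were higher (30.4%, beside 16.7% of all genes) and 9 lower (19.6%, beside 13.5%). The larger of these were TFEB (0.54), GLA (0.42) and PSAP (0.32) among those higher and CTSD (-0.33), IDS (-0.28) and ARSB (-0.26) among those lower. All 9 members lower with time in DMSO were called higher with MS41 at 24 h, as were 10 of the 14 higher with time. CTSD, the largest fall, read 32.9, 28.8 and 31.3 CPM at 6 h and 25.2, 24.1 and 24.6 CPM at 24 h with DMSO. With MS41 it read 32.4, 30.6 and 31.0 CPM at 6 h and 31.6, 34.8 and 30.5 CPM at 24 h.

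The other compounds at 100 nM gave small or no changes. MS41N gave no call at 6 h (0.0% of members; of all genes 0.0264% were higher and 0.295% lower; 2 members had an unadjusted p under 0.05 and DESeq2 called 0) and none at 24 h (of all genes 0.0176% were higher and 0.0176% lower; 8 members had an unadjusted p under 0.05 and DESeq2 called 2). PFI-6 gave no call at 6 h (of all genes 0.66% were higher and 1.39% lower; 6 members had an unadjusted p under 0.05 and DESeq2 called 1).

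At 24 h PFI-6 raised 4 members (8.7%, beside 5.57% of all genes) and lowered 10 (21.7%, beside 6.78%), with a median of -0.02. IDS rose by 0.20 (adjusted p = 0.00033; 34.5, 34.4 and 34.7 CPM), CTSS by 0.19 (adjusted p = 0.00011; 73.9, 76.8 and 75.2 CPM), SCARB2 by 0.15 and ASAH1 by 0.09. Those lower were IDUA (-0.42, adjusted p = 0.0094), ARSA (-0.35, adjusted p = 0.0013), GAA (-0.24), ATP6V0D1 (-0.18), CTSD (-0.17), CTSA (-0.16), GRN (-0.16, adjusted p = 0.032), MAN2B1 (-0.14), ATP6AP1 (-0.12) and LAMP1 (-0.07). ARSA, GAA, ATP6V0D1, CTSD, GRN and ATP6AP1 had been called higher with MS41 against the same DMSO libraries. The PFI-6 calls changed with the handling of GC content: with each library's GC trend removed, 5 members were higher and 1 lower, and GRN (0.01) and CTSD (0.02) changed sign. The number called also fell to 6 without DMSO replicate 3 and to 7 without PFI-6 replicate 2.

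MS41 was also compared directly with each of the other compounds at both times, 4 comparisons in all, with p-values adjusted over all genes in each. Against MS41N, MS41 raised 15 members (32.6%, beside 10.1% of all genes) and lowered 3 (6.52%, beside 11.7%) at 6 h, and raised 34 (73.9%, beside 20.5%) and lowered 2 (4.35%, beside 21.9%) at 24 h. Against PFI-6, MS41 libraries were higher for 19 members (41.3%, beside 9.35%) and lower for 3 (6.52%, beside 10.1%) at 6 h, and higher for 36 (78.3%, beside 20.7%) and lower for 1 (2.17%, beside 21.6%) at 24 h. These comparisons and those with DMSO share the MS41 libraries. At 24 h the largest differences from PFI-6 were FUCA1 (1.28, adjusted p = 1e-28), CTSB (1.23, adjusted p = 3.6e-33) and GRN (1.12, adjusted p = 4.9e-16). With PFI-6, FUCA1 read 37.1, 36.1 and 37.9 CPM, CTSB 91.3, 89.2 and 91.1 CPM and GRN 83.5, 80.0 and 81.4 CPM, all far under the MS41 libraries. With MS41N the same genes read 35.3, 35.2 and 38.3 CPM, 90.7, 90.3 and 88.4 CPM, and 89.1, 85.8 and 82.5 CPM. The differences between MS41 and MS41N were 1.31 for FUCA1, 1.24 for CTSB and 1.05 for GRN. CTSA, lowered by both MS41 and PFI-6, differed between them by -0.02, with a 95% confidence interval from -0.09 to 0.04.

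The ENL guides raised a smaller number of the listed members and lowered none of them. With both guides averaged against the control guide, 16 of 45 members were higher (35.6%, beside 5.32% of all genes) and none lower (0.0%, beside 4.98%), with a median log2 fold change of 0.18 for the members and -0.00 for all genes. Members took 0.462 to 0.482% of counts with the control guide, 0.578 to 0.590% with guide 1 and 0.541 to 0.570% with guide 2. Of the 45 tested, 28 had all 4 ENL guide libraries above both control libraries, a separation seen in 17.4% of all genes tested, and 16 of them were called.

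PSAP had the largest called rise. It read 77.8 and 87.4 CPM with the control guide, 150 and 172 CPM with guide 1 and 134 and 142 CPM with guide 2 (log2 fold change 0.85, SE 0.07, adjusted p = 2.7e-05). GRN read 368 and 376 CPM, 612 and 595 CPM, and 573 and 500 CPM in the same order (0.61, SE 0.07, adjusted p = 0.00021). IDS read 11.2 and 12.7 CPM, 17.5 and 22.0 CPM, and 14.7 and 20.9 CPM (0.65, SE 0.16, adjusted p = 0.042). For PSAP and GRN the groups were far apart; for IDS the spread within each guide was wide, and its call was lost without control replicate 1 or 2 (adjusted p = 0.21 each) or guide 1 replicate 2 (adjusted p = 0.05).

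By role, the guides raised 7 of 13 glycan enzymes, 5 of 8 lipid genes, 3 of 9 peptidases and 1 of 7 membrane genes, and called none of the 3 transcription factors or the 5 proton pump genes. HEXA (0.58, adjusted p = 0.00023), MANBA (0.56) and ARSB (0.45) rose among the glycan enzymes, GM2A (0.43), ASAH1 (0.39) and LIPA (0.31) among the lipid genes, and CTSZ (0.45), CTSB (0.39, adjusted p = 0.0012) and CTSS (0.38, adjusted p = 0.0013) among the peptidases. SCARB2 was the membrane gene (0.52, adjusted p = 0.02), and its call was lost without either control library. GAA (0.42), ARSA (0.30) and MAN2B1 (0.24, adjusted p = 0.025) were the remaining glycan enzymes beside IDS, and the calls for ARSA and MAN2B1 were lost without certain single libraries. FUCA1, the top gene with MS41, read 23.1 and 18.5 CPM with the control guide, 44.3 and 35.5 CPM with guide 1 and 43.4 and 26.7 CPM with guide 2. Its groups did not overlap, but replicates differed widely and the difference was not called (0.85, SE 0.26, adjusted p = 0.15). TFEB (0.20, adjusted p = 0.14), TFE3 (0.15, adjusted p = 0.18), CTSH (0.18, adjusted p = 0.36) and NPC1 (0.00) were not called.

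Of the 16 members called with the guides, 15 were also called higher with MS41 at 24 h. That is 93.8% of the 16, beside 73.9% of all 46 members called higher with MS41. It is 44.1% of the 34, beside 35.6% of all 45 members called higher with the guides. The exception was MAN2B1, an α-mannosidase, which was not called with MS41 (-0.04). The guide and compound libraries share no control. Guide 1 alone raised 14 members (31.1%, beside 4.35% of all genes) and lowered none (0.0%, beside 3.14%), and guide 2 alone raised 12 (26.7%, beside 3.18%) and lowered none (0.0%, beside 1.76%); the control libraries are the same for both. The count for guide 2 fell to 5 without its replicate 1 and to 7 without its replicate 2. Myeloid markers summed to 1240 to 1470 CPM with the control guide and 2260 to 2600 CPM with the ENL guides. Of the 10, 5 were called higher and none lower, beside 5.32% and 4.98% of all genes. T and NK markers, with CD3D and CD2 at 0 in all 3 groups, summed to 34.8 to 37.5 CPM and 46.4 to 57.4 CPM. B-lineage markers, with EBF1 at 0, summed to 8.62 to 12.5 CPM and 6.16 to 7.99 CPM, and mitochondrial genes took 3.19 to 3.58% and 3.82 to 4.66% of the counts, neither with overlap. The part of these in the result was not tested.

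**Figure D4:**
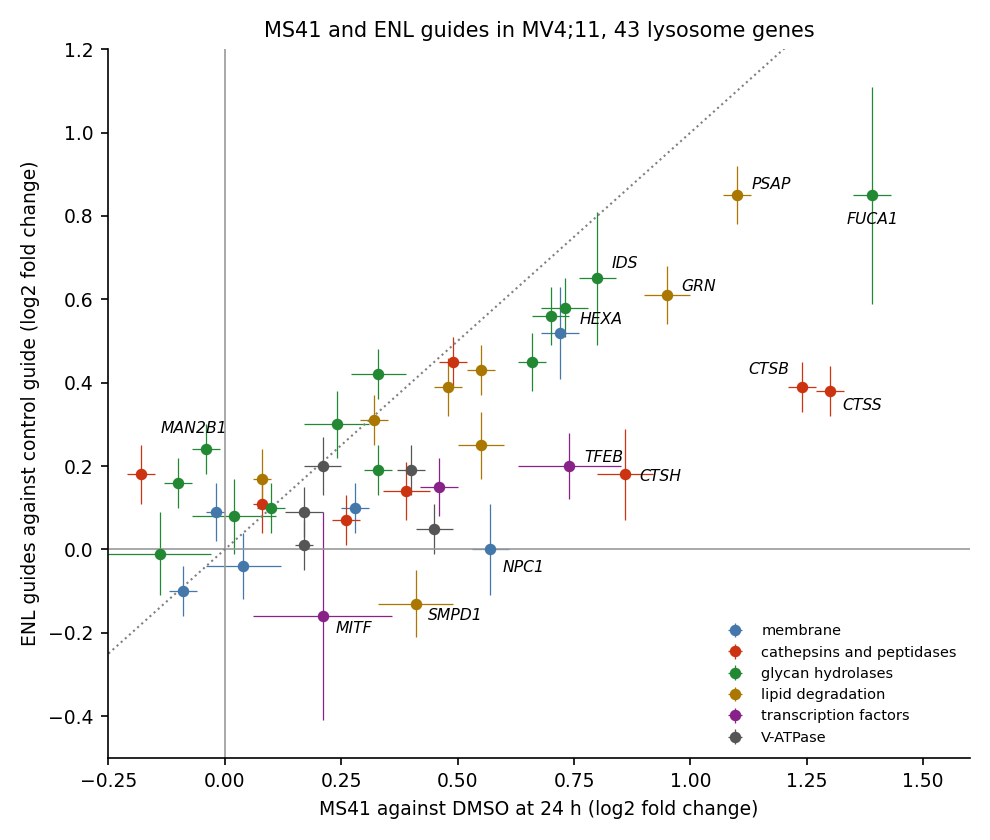
Log2 fold change under MS41 at 24 h (x axis) and with the ENL guides (y axis) for 43 members (points, coloured by role; bars are the SE; dotted line, equal change), left out as in the plot of both times. Most points lie under the dotted line, PSAP lies at 1.10 and 0.85, and NPC1, at 0.57 with MS41, lies at 0.00 with the guides.

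In SEMK2 no lysosome gene was called with MS41 by edgeR's test as set out above. None of 44 members was called higher (0.0%, beside 0.84% of all 21433 genes) or lower (0.0%, beside 0.518%); 10 had an unadjusted p under 0.05, DESeq2 called 3, and the median log2 fold change was -0.00. Over all genes 180 were called higher and 111 lower, and 481 and 554 with each library's GC trend removed. For the genes that led in MV4;11 the values were small. PSAP read 1020, 1030 and 940 CPM with DMSO and 1050, 1080 and 1050 CPM with MS41 (0.09, 95% interval 0.01 to 0.17), and was called higher with the GC trend removed (0.12, adjusted p = 0.0049). The log2 fold change of CTSB was -0.01 (-0.13 to 0.11) and that of CTSS 0.02 (-0.08 to 0.11). The upper bounds of these intervals lie below the MV4;11 values at 24 h, while the treatment times may differ. FUCA1 read 18.2, 17.5 and 16.2 CPM against 19.5, 20.7 and 19.9 CPM, all higher but not called (0.21, adjusted p = 0.13); DESeq2 (adjusted p = 0.04) and the fit with the GC trend removed (adjusted p = 0.035) called it. GRN read 133, 131 and 99.4 CPM against 110, 117 and 108 CPM. ATP6V1B2 read 133, 130 and 131 CPM against 119, 121 and 121 CPM (-0.13), a difference called by DESeq2 (adjusted p = 0.046) and with the GC trend removed (adjusted p = 0.0053).

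The largest difference in SEMK2 was CTSH, at 3.5, 1.45 and 1.43 CPM with DMSO and 1.11, 1.08 and 0.944 CPM with MS41 (-1.02, SE 0.33, adjusted p = 0.23). It was called lower by DESeq2 (adjusted p = 0.011), without the filter on low counts (adjusted p = 1.5e-05) and with the replicate block (adjusted p = 0.048). DMSO replicate 1 was alone in its high value. It also had the highest myeloid marker sum, 105 CPM beside 73.5 to 86.8 CPM in the other libraries. It was the only SEMK2 library with CTSL above 0.0 CPM, at 0.744 CPM. The part of these differences in the CTSH result was not tested, and the CTSH value of the fit without this library is not given. DMSO replicate 3 stood apart from the other DMSO libraries over all genes (mean chi-square per gene 58.5 and 65.2, against 12.1 between the other pair). Without it, 10 members were called: ASAH1 (0.20), ATP6V1A (0.15) and NPC1 (0.12) were higher, and CTSH (-1.24), GRN (-0.24), MAN2B1 (-0.21), ATP6AP1 (-0.17), CTSA (-0.14), LAMP1 (-0.13) and ATP6V1B2 (-0.13) lower. The lysosome of SEMK2 also looked different before treatment: within the SEMK2 table, PSAP was the most abundant member at 346 CPM per kb, with GRN at 51.8 and CTSZ at 48.1, and LGMN, the asparaginyl endopeptidase near 0 in MV4;11, stood at 24.0 CPM per kb. The tables were scaled separately, so levels in SEMK2 and MV4;11 are set side by side as a description only.

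In vivo no lysosome gene was called. None of 45 members was higher (0.0%, beside 0.0% of all 21337 genes) or lower (0.0%, beside 0.0328%); 4 had an unadjusted p under 0.05, DESeq2 called 0, and the median was -0.01. Members took 0.514 to 0.527% of counts with vehicle and 0.514 to 0.526% with MS41. The 3 smallest p-values belonged to IDS, CD63 and ATP6V1A. IDS read 59.6, 73.4 and 76.2 CPM with vehicle and 101, 84.1 and 81.2 CPM with MS41 (0.35, adjusted p = 0.57). CD63 read 191, 177 and 185 CPM against 159, 171 and 165 CPM (-0.16, adjusted p = 0.6). ATP6V1A read 108, 112 and 106 CPM against 120, 115 and 122 CPM (0.13, adjusted p = 0.65). In all of these the libraries of the groups did not overlap, and the test called none. The share of all genes so separated in vivo was not worked out.

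PSAP read 299, 290 and 313 CPM with vehicle and 302, 310 and 288 CPM with MS41 (-0.00, 95% interval -0.14 to 0.13), and FUCA1 16.0, 15.3 and 14.6 CPM against 15.2, 15.9 and 16.7 CPM (0.06, -0.15 to 0.27). The intervals of CTSS (-0.08 to 0.16), CTSB (-0.15 to 0.09) and GRN (-0.28 to -0.0) likewise stop short of the values in culture at 24 h. The in vivo values appear to have been adjusted by replicate number before deposit, a step not given in the sources used here: vehicle and MS41 libraries of the same number deviated from their group means in mirror image (correlations -0.993, -0.967 and -0.981), and the spread within each group may not be that of raw libraries. The fit that leaves the replicate number out called 0 members and 273 genes higher and 250 lower. Myeloid markers summed to 6990 to 8600 CPM in these libraries, and the groups overlapped.

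**Figure D5:**
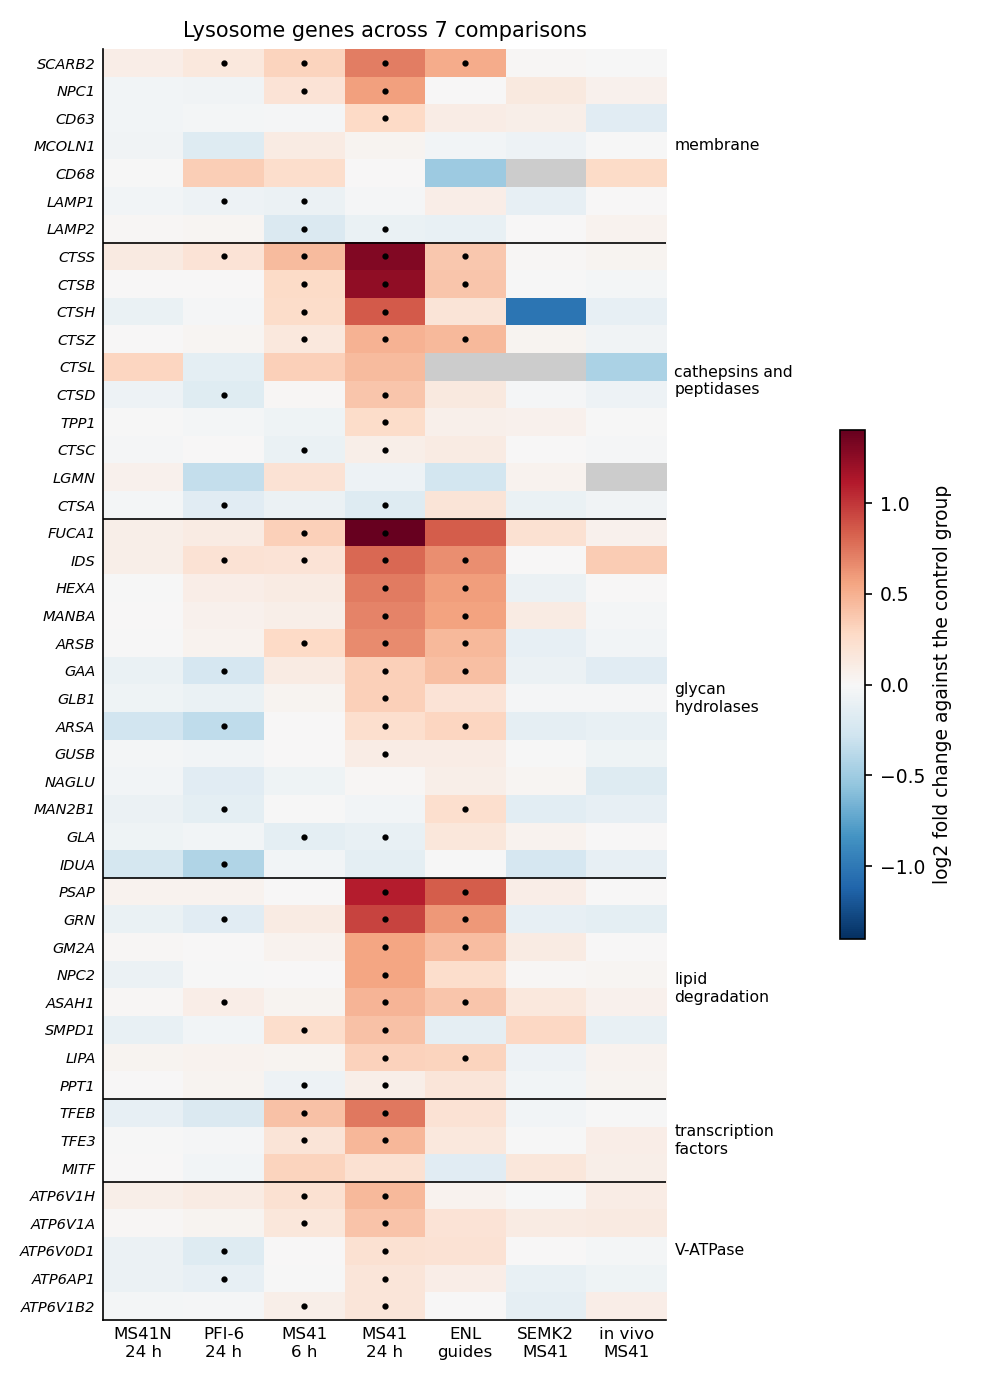
Log2 fold change (colour) of all 46 members (rows, grouped by role) in 7 comparisons (columns: MS41N at 24 h, PFI-6 at 24 h, MS41 at 6 h, MS41 at 24 h, ENL guides, MS41 in SEMK2 and MS41 in vivo); dots mark calls and grey marks genes not tested. The MS41 24 h column has 34 calls higher and 3 lower, the guide column 16 higher, and the MS41N, SEMK2 and in vivo columns none.

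Other genes of the organelle, from lists that hold none of the 46, were read in the same comparisons. With MS41 at 24 h, 25 of 40 further hydrolases and cofactors rose and 5 fell (median log2 fold change 0.35), beside 21.4% and 22.9% of all genes. The peptidase gene SCPEP1 rose from a mean of 42.2 to 90.8 CPM (1.10, SE 0.03), the heparanase gene HPSE from 7.74 to 15.0 CPM (0.95), and PRCP, a carboxypeptidase gene, from 27.6 to 48.5 CPM (0.81). With the guides 9 of 38 of these hydrolases rose (23.7%, beside 5.32% of all genes) and none fell (0.0%, beside 4.98%). Of 30 further membrane genes, the guides raised 5 (16.7%) and lowered 4 (13.3%). They raised 2 of 16 further V-ATPase genes (12.5%) and 3 of 39 genes of sorting and fusion (7.69%). Of 31 genes of nutrient sensing and autophagy they raised 4 (12.9%), and none fell in these last 3 lists (0.0%).

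Further membrane genes split, with 15 of 30 higher and 6 lower (median 0.17). LITAF (1.21), PLD3, a nuclease of the endolysosome (1.05), and LAPTM5, a protein of blood cell lysosomes (0.62), rose, and LAPTM4B fell (-0.61). Of the remaining V-ATPase genes 3 of 16 rose (18.8%) and 5 fell (31.2%), near the shares of 21.4% and 22.9% over all genes (median -0.04), with ATP6V0A1 at 0.92 and ATP6V1G1 at 0.15 higher and ATP6V0B at -0.29 and ATP6V0E1 at -0.23 lower. All 5 pump genes on the list of members had risen. Of 39 genes of sorting and fusion 17 rose (43.6%) and 9 fell (23.1%, near the 22.9% of all genes), with a median of 0.08. Among genes of this list at an average log2 CPM of at least 3, the largest called changes were rises. They were those of STX7, a SNARE of late endosomes (0.70), HPS1 (0.49), GGA2 (0.46) and RAB32 (0.44). The largest log2 fold change in the full list, at any level, was 2.82. Of 31 genes of nutrient sensing and autophagy 12 rose (38.7%) and 6 fell (19.4%), beside 21.4% and 22.9% of all genes (median 0.06). Among them TFEC, a further member of the TFEB family, rose from 85.1 to 153 CPM (0.85, SE 0.04), and EPG5 (0.48), FNIP2 (0.41) and UVRAG (0.39) rose as well. At 6 h, where 12.2% of all genes were higher and 13.8% lower, 13 of the 40 hydrolases were higher (32.5%) and 1 lower. The membrane genes, with 4 of 30 higher and 4 lower, stood near those shares, and the V-ATPase genes had 1 of 16 higher and 2 lower. The genes of sorting and fusion had 7 of 39 higher and 12 lower, and those of nutrient sensing and autophagy 3 of 31 higher and 1 lower. In SEMK2 and in vivo edgeR called none of them in any list.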

How the data were processed

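Poly(A) RNA-seq counts of 42 libraries in 4 tables were used. Base calling with CASAVA 1.8, alignment with HISAT2 2.1.0 to hg38 and counting with HTSeq 0.11.3 are listed by name in the submitters' processing notes, and other settings are not given in the sources used here. Whole-number counts per gene were deposited by the authors for the cell culture and guide tables. The deposited in vivo values are whole numbers too, but same-numbered vehicle and MS41 libraries mirror each other, a pattern that raw counts do not give, so these deposited values were taken to be expected counts, adjusted it appears by replicate number in a step not given in the sources used here; that fit has the replicate number as a block. Symbols, positions and exon lengths come from GENCODE 29, and all identifiers matched; promoter windows come from RefSeq.

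Each table was fitted with all of its groups in edgeR 4.0.16 (filterByExpr, TMM factors, robust quasi-likelihood test; limma 3.58.1, R 4.3.3), with p-values adjusted over all genes tested, in 17 comparisons. The script was tested on simulated data. The alternatives were DESeq2 1.42.0, RLE factors, no filter, GC trend removal (spline with 5 degrees of freedom), a replicate block, and each library left out in turn. Tables and plots were made with Python 3.11.15, pandas 2.3.3 and matplotlib 3.10.9. The biological coefficient of variation was 4.77% for the MV4;11 compound table, 11% for SEMK2, 9.21% for the guides and 13% in vivo, on 16, 4, 3 and 2 residual degrees of freedom, so the precision of a fold change differs between tables. The in vivo block was set because of the mirror image, with negative correlations of -0.993, -0.967 and -0.981. In the other tables, replicate numbers were taken to pair libraries only where every pair of 3 or more correlated above 0.1 in its deviations. None of the compound comparisons in culture met this (MS41 at 24 h: 0.0825, 0.104 and 0.207). The guide comparisons, with 2 libraries per guide, could not meet it, so pairing there is undecided.

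The members, their roles and the further lists were chosen with earlier results of these data known, so no test over a list is given. Values in every library are given for the 8 called members with the largest rise and up to 6 with the largest fall for MS41 at 24 h, for the 3 largest calls (in vivo, the 3 smallest p) in the other main comparisons, and for TFEB, TFE3, MITF and LAMP1; CTSC, ATP6V1B2 and repeats of these genes in other comparisons were added after their values were seen. At most 4 genes of each further list are named, the largest calls at an average log2 CPM of at least 3. A gene that this rule would name is not reported here. No library was left out of the main fits.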

Additional observations from a re-analysis of the deposited data

Results flagged for a closer look

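The effect of MS41 in MV4;11 was larger at 24 h than at 6 h for several members, by the edgeR test of the difference itself. The difference on the log2 scale was 1.09 for PSAP, 1.07 for FUCA1, 0.97 for CTSB, 0.87 for CTSS, 0.84 for GRN, 0.6 for CTSH, 0.6 for IDS and 0.28 for TFE3. For LAMP2, which was lower at both times, it was 0.11, and that call was lost in 6 of the fits that leave out 1 library.

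With MS41 in SEMK2, 7 members had every library above every DMSO library and 5 had every library below. In vivo 2 members lay wholly above vehicle and 8 wholly below. The share of all genes so separated was not worked out for either, and the difference from MV4;11 culture was not tested. Some of the members wholly below had been called higher in MV4;11 culture at 24 h. In vivo these were CD63 (-0.16), GRN (-0.14), CTSH (-0.12), ARSA (-0.1), SMPD1 (-0.1) and CTSD (-0.07). In SEMK2 they were CTSH (-1.02, with DMSO replicate 1 alone high, at 3.5 CPM beside 1.45 and 1.43 CPM), ATP6V1B2 (-0.13), LIPA (-0.07) and PPT1 (-0.04). In its own comparison none of these values was called by the edgeR fit used for the report, while in SEMK2 CTSH was called lower by DESeq2, without the filter, with the replicate block and without DMSO replicate 3, and ATP6V1B2 by DESeq2, with the GC trend removed and without DMSO replicate 3; the in vivo values appear to have been adjusted before deposit.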

How the results depend on the processing

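RLE factors changed no count of members called by more than 1.5 times. Other settings did, and the cause was not tested: for PFI-6 at 6 h 1 member was called with the GC trend removed and 1 with DESeq2, against 0; for PFI-6 at 24 h 6 with the GC trend removed, against 14, where CTSD (0.02) and GRN (0.01) changed sign; for MS41N at 24 h 1 without the filter and 2 with DESeq2, against 0; for SEMK2 1 without the filter, 5 with the GC trend removed and 3 with DESeq2, against 0; for guide 1 22 without the filter, against 14; and in vivo 1 without the filter, against 0. Counts over all genes moved as well. In SEMK2 180 were called higher and 111 lower, against 481 and 554 with the GC trend removed, 425 and 487 without the filter, 333 and 329 with the replicate block and 386 and 347 with DESeq2. For the guides 957 and 896 became 1559 and 1244 without the filter and 1569 and 1634 with the block; for PFI-6 at 24 h 1266 and 1540 became 243 and 319 with the GC trend removed; and in vivo 0 and 7 became 75 and 109 without the filter and 22 and 39 with DESeq2.

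With a replicate block 1 member was called in SEMK2, 37 for MS41 at 24 h, 20 for MS41 at 6 h, 21 for the guides together, 21 for guide 1 and 17 for guide 2; in vivo the fit without the block called 0. The labels do not say whether the numbers pair the culture libraries, so these are alternatives only. Same-numbered libraries correlated at 0.67 and 0.00632 for the guides' 2 pairings.

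Leaving out 1 library gave 33 to 37 members called for MS41 at 24 h, 17 to 20 at 6 h, 28 to 31 for the change between times, 14 to 15 for the guides together, 11 to 15 for guide 1, 5 to 15 for guide 2, 6 to 13 for PFI-6 at 24 h, 0 to 0 at 6 h, 0 to 0 for MS41N at both times, 0 to 10 in SEMK2, 0 to 0 in vivo and 18 to 23 for time in DMSO. Against MS41N it gave 17 to 20 at 6 h and 35 to 36 at 24 h, and against PFI-6 17 to 22 and 33 to 37. With 2 residual degrees of freedom in vivo and 3 for the guides, small changes cannot be seen there.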
